A study of Mus musculus with 30 samples.

Results

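The triad genes of excitation-contraction coupling were followed as a set of 10 genes among the 36103 genes of the count table, chosen by name for their role. They are the ryanodine receptors Ryr1, Ryr2 and Ryr3, the dihydropyridine receptor subunits Cacna1s, Cacnb1 and Cacng1, the adaptor Stac3, and the junctional proteins Jph1, Jph2 and Trdn. RNA came from whole gastrocnemius, diaphragm, heart and liver of 5-week-old male mice on a pure 129Pas background, either Mtm1-/y, which lack the phosphoinositide phosphatase myotubularin in all tissues, or their WT littermates. There were 4 libraries per genotype for gastrocnemius and heart, 4 WT and 3 knockout for diaphragm, and 3 WT and 4 knockout for liver, each from 1 mouse of its group. Totals ran from 24873817 to 44289343 counts per library.

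In a triad, a transverse tubule of the muscle membrane lies against terminal cisternae of the sarcoplasmic reticulum. The dihydropyridine receptor in the tubule senses the action potential, and in skeletal muscle it opens the ryanodine receptor of the reticulum through direct contact, whereas in the heart calcium that enters through its cardiac counterpart opens the receptor. Loss of myotubularin causes X-linked myotubular myopathy, in which triads of skeletal muscle are known to be disorganised, and the comparison of genotypes asks how far the transcripts of the triad proteins differ in each muscle.

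Levels are CPM, the counts relative to the library total after scaling by trimmed mean of M values (TMM) over all 30 libraries, and levels of different genes are compared only after division by exon length, in CPM per kb. A log2 fold change is that of the knockout over WT in the same tissue, and SE is its standard error. The test was the quasi-likelihood test of edgeR, with p adjusted by Benjamini-Hochberg over all genes tested, and the words rose, fell and called are kept for an adjusted p under 0.05. Mtm1 itself, the targeted gene, lay at 15.5 to 27.0 CPM in the WT libraries and at 3.49 to 8.08 CPM in the Mtm1-/y libraries of the 4 tissues. Fast fibre genes summed to 227460 to 268672 CPM in WT gastrocnemius and to 46309 to 72139 CPM in WT diaphragm, against 891 to 1199 CPM in WT heart, where the cardiomyocyte genes stood at 49651 to 70079 CPM. The diaphragm libraries also held hepatocyte genes, at 605 to 58127 CPM in sum, unevenly between libraries of both genotypes.

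The promoter sequences of the members held by the promoter table are shown here, as bases before the annotated start in RefSeq for GRCm38.p6, read 5′ to 3′ along the gene. Ryr1 and Cacna1s are cut to 222 and 189 bases, because their GENCODE annotation begins upstream of that start. Their printed bases thus end short of the RefSeq start. Of the 10 genes 5 were found in the promoter table, and 4 had bases upstream of every annotated start. Capitals mark matches, on either strand, to the E boxes CAGCTG and CACCTG, which bind myogenic basic helix-loop-helix factors, and to the MCAT element CATTCC, which binds TEAD factors. Among 32851 mouse promoters in the same table, the 250 bases before the start held CAGCTG in 13%, CACCTG in 17.2% and CATTCC in 12.6%.
Ryr1 (chr7:29125180-29125401, minus strand): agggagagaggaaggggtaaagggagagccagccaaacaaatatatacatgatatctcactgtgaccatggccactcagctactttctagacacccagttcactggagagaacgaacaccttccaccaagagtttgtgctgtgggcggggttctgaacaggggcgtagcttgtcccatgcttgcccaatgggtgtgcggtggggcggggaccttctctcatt
Cacna1s (chr1:136052561-136052749, plus strand): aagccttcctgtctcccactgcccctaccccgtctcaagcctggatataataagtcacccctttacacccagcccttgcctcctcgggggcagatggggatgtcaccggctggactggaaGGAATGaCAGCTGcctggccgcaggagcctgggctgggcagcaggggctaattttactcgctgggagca
Jph2 (chr2:163397994-163398243, minus strand): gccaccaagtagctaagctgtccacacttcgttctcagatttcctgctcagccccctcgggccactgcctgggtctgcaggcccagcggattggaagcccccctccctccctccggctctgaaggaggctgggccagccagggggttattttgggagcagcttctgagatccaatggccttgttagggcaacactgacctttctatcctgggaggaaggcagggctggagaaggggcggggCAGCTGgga
Ryr2 (chr13:12106946-12107195, minus strand): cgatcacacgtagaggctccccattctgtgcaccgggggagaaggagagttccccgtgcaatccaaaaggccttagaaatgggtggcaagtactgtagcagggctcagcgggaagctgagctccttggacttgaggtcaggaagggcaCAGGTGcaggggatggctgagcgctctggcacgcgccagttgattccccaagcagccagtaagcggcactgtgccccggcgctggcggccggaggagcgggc

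The Cacna1s window held CATTCC, read on the other strand as GGAATG, at 130 bases and CAGCTG at 123 bases before the RefSeq start. That start lies past the end of the printed bases. Jph2 had CAGCTG at 9 bases before its start, and Ryr2 had CACCTG, read as CAGGTG, at 102 bases. The Ryr1 window held none of these letters. The MEF2 site and the CArG box, present in 2.92% and 1.47% of the promoters, were found in none of the 4 windows.

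In WT mice skeletal muscle and heart differed in their main ryanodine receptor. Ryr1, the skeletal calcium release channel (chromosome 7, 29003344 to 29125179, mm10), was at 4786, 5378, 4662 and 5392 CPM in the WT gastrocnemius libraries and at 1516, 2176, 2655 and 1583 CPM in the WT diaphragm. In WT heart it was at 0.163 to 0.426 CPM. Ryr2, the cardiac channel (chromosome 13, 11553102 to 12106945), had the reverse pattern, with 1386, 1588, 1543 and 1352 CPM in WT heart and at most 0.283 CPM in WT skeletal muscle. These groups lay far apart and did not overlap. Ryr3 (chromosome 2, 112631355 to 113217096), a channel found at low level in several muscles, was at 4.08 ± 1.23 CPM in WT gastrocnemius, 12.1 ± 4.22 CPM in WT diaphragm and 17.2 ± 16.3 CPM in WT heart (SD, n = 4 each). In the WT liver libraries Ryr3 had 0 counts, and the same held in the Mtm1-/y livers, which allows up to 0.0729 to 0.111 CPM per library, a limit that covers counting error only.

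Among the WT muscles, 8 of the 10 genes were lower in heart than in gastrocnemius and 2 were higher, where 30.3% and 33.9% of all genes were called lower and higher. Ryr1 differed by a log2 fold change of −14.02 (SE 0.37, edgeR adjusted p = 9.7e-11) and Ryr2 by 13.01 (SE 0.28, adjusted p = 8.1e-11). Cacng1, the gamma subunit of the skeletal dihydropyridine receptor (chromosome 11, 107703218 to 107716522), followed with −12.07 (SE 0.46, adjusted p = 1.8e-09). The higher level of Ryr3 in heart than in gastrocnemius (2.05, SE 0.66, adjusted p = 0.017) was not called without WT heart library 4 (1.22, adjusted p = 0.077), with the replicate number as a block (1.75, adjusted p = 0.063) or by limma voom (1.17, adjusted p = 0.13).

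Jph2 and Trdn were high in all 3 muscles. Jph2, a junctophilin that bridges the surface and reticulum membranes (chromosome 2, 163336242 to 163397993), stood at 256 ± 13.7 CPM per kb in WT gastrocnemius, 72.9 ± 19.6 in WT diaphragm and 100 ± 9.82 in WT heart (SD, n = 4 each). It had the highest level per kb of the 10 genes in WT heart. On the longest principal transcript its lead there was narrower, at 101 CPM per kb against 87.3 for Ryr2 and 85.5 for Trdn. In WT gastrocnemius it led as well when the union of exons was the length, while on the longest principal transcript Trdn (421 CPM per kb) and Ryr1 (329) stood above it (258), a length chosen after seeing the data. Trdn, or triadin, which anchors calsequestrin at the ryanodine receptor (chromosome 10, 33080554 to 33476709), stood at 203 ± 17.9, 61.1 ± 15.1 and 41.2 ± 4.79 CPM per kb in the same order. Jph1, the junctophilin of skeletal muscle (chromosome 1, 16964560 to 17097889), stood at 107 ± 10.1 CPM per kb in WT gastrocnemius and at 4.76 ± 1.41 in WT heart.

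Against WT diaphragm, WT heart had 7 of the 10 genes lower and 2 higher, Ryr2 (12.91, SE 0.27) and Jph2 (0.46, SE 0.16, edgeR adjusted p = 0.032), where 28.7% of all genes were lower and 22.5% higher. The call of Jph2 was lost without WT diaphragm library 1 or 4 or WT heart library 1, 2 or 3, and that of Trdn (−0.57, SE 0.16, adjusted p = 0.012) without WT diaphragm library 3. With a log2 fold change over 1 also required, Ryr2 alone was higher, against 8.65% of all genes. Ryr3 did not pass the test (0.52, SE 0.62, adjusted p = 0.51).

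Compared with WT gastrocnemius, WT diaphragm had lower levels of 8 of the 10 genes and higher levels of 0, where edgeR called 25.0% of all genes lower and 29.7% higher. At an unadjusted p under 0.05, 1 gene, Ryr3, was higher (1.53, SE 0.65, adjusted p = 0.065), and by limma voom and DESeq2 0 genes were called higher. Cacng1 had the largest difference of the 8 (−3.42, SE 0.29, adjusted p = 5.1e-06), and Cacna1s, the pore and voltage sensor (chromosome 1, 136052750 to 136119822), the smallest (−1.07, SE 0.25, adjusted p = 0.0035). Per kb, Cacng1 was at 247 ± 39.5 CPM in WT gastrocnemius, above Cacna1s at 202 ± 17.8, whereas in WT diaphragm it was at 23.8 ± 9.05 CPM against 99.0 ± 27.4 for Cacna1s (SD, n = 4 each). Sarcomere genes summed to 56866 to 66859 CPM in WT gastrocnemius and to 20434 to 34422 CPM in WT diaphragm, and their part in these differences was not tested.

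In the gastrocnemius, 7 of the 9 genes that could be tested fell in Mtm1-/y mice and 1, Cacng1, rose. Of all 15456 genes tested, 14.9% fell and 14.1% rose. Ryr2 was under the filter on low counts there. The genotypes did not overlap for 8 of the 9 genes, against 30.5% of all genes. The median log2 fold change of the 9 genes was −0.52, and that of all genes was 0.02. In whole muscle, fewer cells of a type and less RNA per cell cannot be told apart. In a fit of all 30 libraries with a shared estimate of the spread, edgeR called 0 of the 10 genes, where it called 15.8% of all genes, and 5 had an unadjusted p under 0.05. The log2 fold changes of the 9 genes there were within 0.02 of those given here.

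Ryr1 was at 4786, 5378, 4662 and 5392 CPM in WT and at 3768, 3300, 3313 and 3935 CPM in Mtm1-/y gastrocnemius. Every Mtm1-/y library lay below every WT library, and Ryr1 fell by 0.52 on the log2 scale (SE 0.09, edgeR adjusted p = 0.0029). Ryr3 was at 4.23, 5.64, 2.67 and 3.78 CPM in WT and at 1.56, 1.95, 1.65 and 1.73 CPM in Mtm1-/y. Those libraries did not overlap either, and the fall of Ryr3 was the only call of a member over 1 on the log2 scale (−1.26, SE 0.22, adjusted p = 0.0028). Of all genes, 1.79% fell and 4.84% rose by that much.

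Cacna1s was at 1295, 1429, 1172 and 1401 CPM in WT and at 979, 942, 866 and 1014 CPM in Mtm1-/y. It fell by 0.50 (SE 0.08, adjusted p = 0.0023), with no overlap. Stac3, which delivers the receptor to the triad and couples it to the release channel (chromosome 10, 127501686 to 127508823), had tight groups, at 445 to 466 CPM in the 4 WT and 330 to 355 CPM in the 4 Mtm1-/y libraries, and fell by 0.42 (SE 0.06, adjusted p = 0.001).

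Cacng1 was the member that rose. It was at 282, 341, 254 and 359 CPM in WT and at 583, 421, 444 and 579 CPM in Mtm1-/y, again without overlap. The rise was 0.69 (SE 0.14, adjusted p = 0.0055). Cacnb1, the beta subunit that brings the pore to the membrane (chromosome 11, 98001508 to 98023034), was at 286, 268, 273 and 323 CPM in WT and at 362, 300, 286 and 344 CPM in Mtm1-/y. These libraries overlapped, and the difference of 0.15 (SE 0.09, adjusted p = 0.25) did not pass the test.

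Of the junctional proteins, both junctophilins fell further than any member other than Ryr3. Jph2 was at 1099, 1149, 1008 and 1094 CPM in WT and at 660, 699, 579 and 606 CPM in Mtm1-/y, a fall of 0.79 (SE 0.08, adjusted p = 2.3e-04). Jph1 was at 474, 587, 517 and 565 CPM in WT and at 331, 310, 330 and 374 CPM in Mtm1-/y, a fall of 0.69 (SE 0.09, adjusted p = 6.3e-04). Both junctophilins separated the genotypes by a wide gap. Trdn ran from 1730 to 2122 CPM in WT and from 1231 to 1482 CPM in Mtm1-/y, a fall of 0.54 (SE 0.09, adjusted p = 0.0022).

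**Figure D1:**
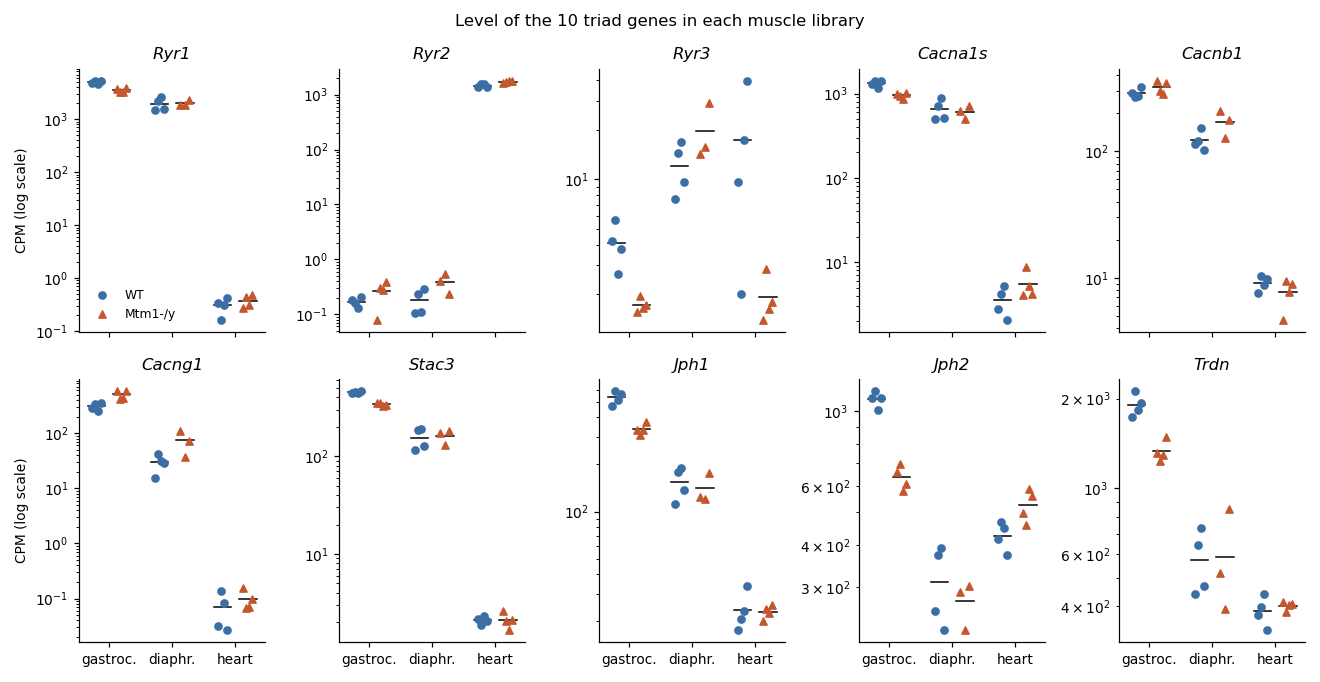
Level of each of the 10 genes (CPM, log axis, each panel with its own range) in every library of the 3 muscles, WT as circles and Mtm1-/y as triangles, with the group mean as a line. In the gastrocnemius the genotypes stand apart for 8 genes, with Ryr1 at 4662 CPM or more in WT and at most 3935 CPM in Mtm1-/y.

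The calls in the gastrocnemius depended on how libraries were scaled. With library sizes set by the summed counts of 19 sarcomere genes, the median log2 fold change of all genes moved from 0.02 to 0.39, and with library totals alone, a setting chosen after seeing the data, it moved to 0.35. Of the 19 genes, Ttn and Mybpc2 weighed most, at means of 16337 and 11028 CPM in WT and 10774 and 5938 CPM in Mtm1-/y. Under TMM 10 of the 19 were lower and 5 higher. Mybpc2 and Myoz1 are also in the fast fibre list. The part of this weighting in the calls below was not tested. Under the sarcomere scaling Ryr3 (−0.87, SE 0.22, edgeR adjusted p = 0.0081), Jph1 (−0.31, SE 0.08, adjusted p = 0.0091) and Jph2 (−0.42, SE 0.09, adjusted p = 0.003) were still lower. Ryr1 (−0.14, adjusted p = 0.087), Cacna1s (−0.12, adjusted p = 0.15), Stac3 (−0.05, adjusted p = 0.64) and Trdn (−0.16, adjusted p = 0.097) were not called. Cacng1 (1.07, SE 0.10, adjusted p = 6.7e-05) and Cacnb1 (0.52, SE 0.09, adjusted p = 0.0011) were higher. Thus 3 genes were lower and 2 higher, where 2.94% and 48.9% of all genes were called lower and higher. With library totals alone 4 were lower, the same 3 and Trdn (−0.20, adjusted p = 0.038), and the same 2 were higher, against 4.24% and 49.3% of all genes.

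**Figure D2:**
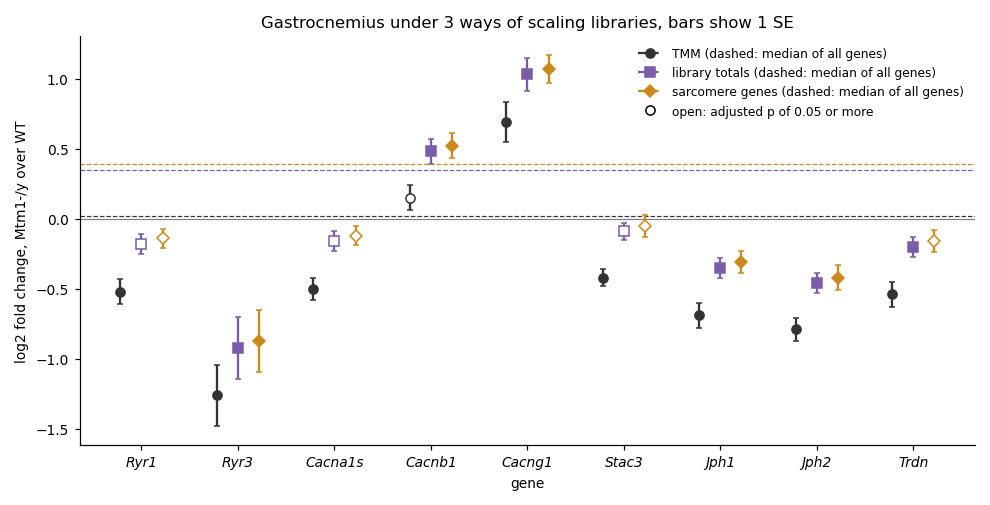
Log2 fold change (Mtm1-/y over WT, bars 1 SE) of the 9 genes tested in the gastrocnemius under TMM, library totals and sarcomere scaling, with open symbols where the adjusted p was 0.05 or more and dashed lines at the median of all genes. The genes keep their order in all 3 settings, while Ryr1 moves from −0.52 under TMM to −0.18 and −0.14. Cacng1 is called above 0 and Ryr3, Jph1 and Jph2 are called below 0 in each.

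Several lists of markers of other cells and of fibre state also moved with genotype, and others did not. Genes of developing or denervated fibres summed to 118 to 163 CPM in WT and 412 to 714 CPM in Mtm1-/y gastrocnemius, and 11 of 11 rose. Macrophage genes summed to 58.4 to 99.6 and 179 to 223 CPM, and 10 of 10 rose. Adipocyte genes summed to 261 to 407 and 404 to 615 CPM, with 8 of 12 higher. Fast fibre genes summed to 141077 to 169696 CPM in Mtm1-/y, below the WT range, with 12 of 14 lower and 2 higher (median log2 fold change −0.75). Slow fibre genes overlapped in their sums, at 2178 to 6556 CPM in WT and 1771 to 4286 CPM in Mtm1-/y. Of these 10 genes 1 was higher and 1 lower (median −0.43). Fibroblast genes overlapped between genotypes in their sums, at 3270 to 8692 and 3886 to 11083 CPM, with 5 of 8 higher. Sarcomere genes summed to 44220 to 51296 CPM in Mtm1-/y, also below WT, with 10 of 19 lower and 5 higher. The cardiomyocyte list, most of whose sum in WT is Actc1, the cardiac actin, summed to 6761 to 7931 CPM in WT and 1145 to 2913 CPM in Mtm1-/y, while 4 of its 8 tested genes were higher and 1 lower. Smooth muscle genes summed to 3141 to 4165 and 4377 to 6346 CPM, with 1 of 8 higher and 2 lower (median −0.17). Most of both sums is Des, or desmin, which is also on the sarcomere list. Its mean went from 3296 CPM for the WT group to 4683 CPM for the knockout group. Mesothelial genes stood far lower, at 0.771 to 1.56 and 6.52 to 15.8 CPM, with 2 of 3 tested higher. Neuron and Schwann cell genes overlapped, at 156 to 539 and 234 to 665 CPM, with 0 of 6 tested called. Hepatocyte genes also overlapped, at 46.8 to 169 and 23.7 to 92.7 CPM, with 1 of 17 tested higher and 2 lower. The part of these lists in the member changes was not tested. Genes with over 10 kb of exon, the class of the ryanodine receptors, had a median log2 fold change of −0.05.

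Ratios of counts between partners within a library do not depend on the scaling between libraries. In the gastrocnemius the log2 ratio of Cacng1 to Cacna1s was −2.20 to −1.96 in WT and −1.16 to −0.75 in Mtm1-/y, and in the diaphragm it was −5.05 to −4.05 in WT and −3.72 to −2.49 in Mtm1-/y. The ratio was thus higher in every Mtm1-/y library than in any WT library of the same muscle, by 1.19 in the gastrocnemius and by 1.34 in the diaphragm on the log2 scale (exact permutation test, two-sided, p = 0.0286 each, the smallest that these group sizes allow, and adjusted p = 0.114 over 12 tests). The ratio of Cacnb1 to Cacna1s was also higher, by 0.64 in the gastrocnemius, where the genotypes did not overlap (p = 0.0286, adjusted p = 0.114, same exact test), and by 0.53 in the diaphragm, where they did not overlap either (−2.54 to −2.14 in WT and −2.00 to −1.57 in Mtm1-/y, p = 0.0571, adjusted p = 0.171, same exact test).

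The other 4 ratios differed less between the genotypes. The log2 ratio of Cacna1s to Ryr1 was −1.93 ± 0.05 in WT and −1.91 ± 0.07 in Mtm1-/y gastrocnemius (SD, n = 4 each), and that of Trdn to Ryr1 was −1.41 ± 0.07 and −1.43 ± 0.07. The differences, 0.02 and −0.02, were smaller than the spread between libraries. Stac3 to Cacna1s differed by 0.07 and Jph1 to Jph2 by 0.11 in the gastrocnemius, with overlapping libraries. In the diaphragm these 4 ratios differed by −0.12 to 0.14. Of the 12 tests 0 passed the adjustment, and 3 had an unadjusted exact permutation p under 0.05. A single test at the smallest exact p that these group sizes allow, 0.0286, could not pass the adjustment. The count of 0 thus does not decide on any ratio by itself.

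**Figure D3:**
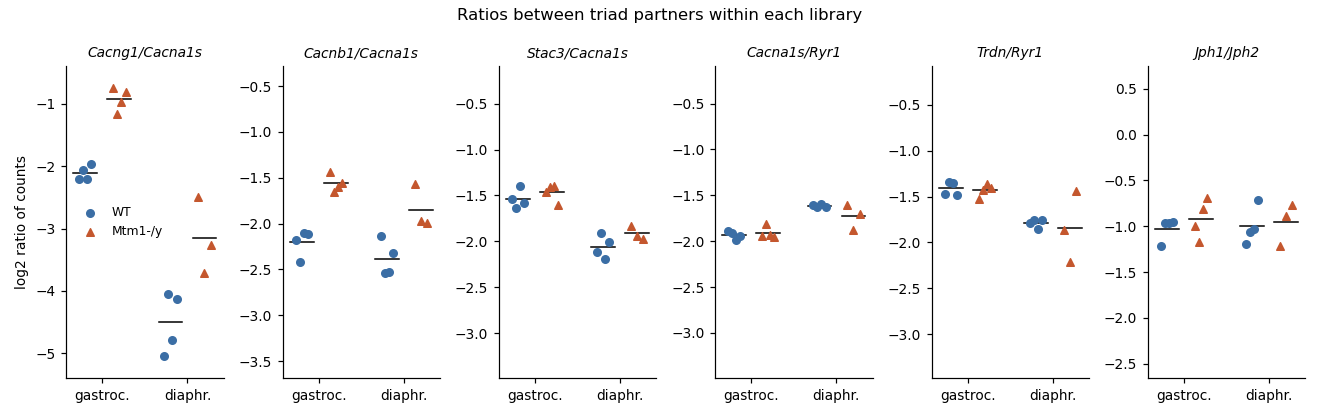
Log2 ratio of counts between pairs of triad genes in each library of the gastrocnemius and the diaphragm, WT as circles and Mtm1-/y as triangles, with the group mean as a line and a wider axis in the Cacng1/Cacna1s panel. Cacng1 to Cacna1s is shifted upwards by 1.19 and 1.34, while Cacna1s to Ryr1 and Trdn to Ryr1 in the gastrocnemius stay within 0.02 of WT.

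In the diaphragm 0 of the 10 genes were called by edgeR, where 0.0119% of all genes were, and 2, Cacnb1 and Cacng1, had an unadjusted p under 0.05. DESeq2 and limma voom also called 0, where they called 2.37% and 0.0536% of all genes. In none of the 10 genes did the genotypes stand apart without overlap, against 9.71% of all genes. Cacng1 was at 15.1, 42.6, 31.7 and 29.3 CPM in WT and at 110, 37.6 and 73.4 CPM in Mtm1-/y, so that the Mtm1-/y values overlapped the WT range (log2 fold change 1.32, SE 0.42, edgeR adjusted p = 0.36). Cacnb1 was at 114, 121, 152 and 103 CPM in WT and at 209, 126 and 176 CPM in Mtm1-/y (0.49, SE 0.20, adjusted p = 0.46). These were the genes that had the highest log2 fold changes in the gastrocnemius.

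Ryr1 was at 1516, 2176, 2655 and 1583 CPM in WT and at 1887, 1826 and 2299 CPM in Mtm1-/y diaphragm. The Mtm1-/y libraries lay inside the WT range, and the difference was 0.03 (SE 0.26, adjusted p = 0.98). Cacna1s, Stac3, Jph1, Jph2 and Trdn differed by −0.18 to 0.06, with SE of 0.23 to 0.32. Ryr3 was at 7.60, 14.3, 16.8 and 9.66 CPM in WT and at 14.3, 15.7 and 29.1 CPM in Mtm1-/y (0.72, SE 0.36, adjusted p = 0.54).

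The diaphragm libraries differed among themselves in what they held. Hepatocyte genes summed to 45629, 30496, 605 and 33793 CPM in WT and to 4078, 58127 and 1006 CPM in Mtm1-/y diaphragm, against 228310 to 292585 CPM in the liver. Sarcomere genes summed to 20613, 29413, 34422 and 20434 CPM in WT and to 28505, 23394 and 35870 CPM in Mtm1-/y. The biological coefficient of variation was 0.394 there and 0.171 in the gastrocnemius. With liver-enriched genes left out, or with sarcomere scaling, 0 of the 10 genes were called in the diaphragm. Other lists stood apart between the genotypes in their sums. Genes of developing or denervated fibres summed to 56.6 to 105 CPM in WT and 173 to 536 CPM in Mtm1-/y diaphragm, with 0 of 11 called and a median log2 fold change of 2.11. Fibroblast genes summed to 2035 to 4214 and 4373 to 8705 CPM, with 0 of 8 called. Their part in the ratios of Cacng1 and Cacnb1 to Cacna1s was not tested.

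In the heart 0 of the 9 genes tested were called by edgeR, where 0.00656% of all genes were, and 3, Ryr2, Ryr3 and Jph2, had an unadjusted p under 0.05. DESeq2 called 1, Ryr3, where it called 0.352% of all genes lower, and limma voom called 0, as against 0.00656% of all genes. Ryr2 was at 1386, 1588, 1543 and 1352 CPM in WT and at 1639, 1668, 1751 and 1809 CPM in Mtm1-/y. The genotypes did not overlap for this gene alone of the 9, against 4.08% of all genes, and the difference was small (0.22, SE 0.09, edgeR adjusted p = 0.55). Jph2 was at 416, 468, 450 and 373 CPM in WT and at 499, 457, 586 and 560 CPM in Mtm1-/y heart (0.29, SE 0.11, adjusted p = 0.55). Trdn, at 332 to 440 CPM in WT and 383 to 414 CPM in Mtm1-/y, differed by 0.05 (SE 0.09, adjusted p = 0.83).

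Ryr3 had the largest difference in the heart, and it rested on WT libraries that varied widely. It was at 9.68, 2.01, 17.4 and 39.7 CPM in WT and at 1.40, 2.85, 1.62 and 1.80 CPM in Mtm1-/y. The lowest WT library lay inside the Mtm1-/y range. The log2 fold change was −3.18 (SE 0.76, adjusted p = 0.55) by edgeR and −3.17 (SE 0.80, adjusted p = 0.023) by DESeq2, and without WT library 4 it was −2.34 by edgeR.

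Genes of the atria, named after their values were seen, also varied between the heart libraries. Myl7, the atrial regulatory light chain, was at 711, 39.1, 600 and 4172 CPM in WT and at 4.12, 1082, 1.11 and 8.16 CPM in Mtm1-/y. Sln, or sarcolipin, an inhibitor of the calcium pump that the atria express, was at 187, 9.63, 171 and 1044 CPM in WT and at 0.611, 264, 0.104 and 1.93 CPM in Mtm1-/y. The WT library highest in Ryr3 was the highest in both, and WT library 2 was low in all of these genes. Mtm1-/y library 2, with Myl7 at 1082 CPM, had Ryr3 at 2.85 CPM, while WT library 1, with Myl7 at 711 CPM, had Ryr3 at 9.68 CPM. Hcn4, the pacemaker channel, was at 12.2 to 23.1 CPM in the 8 libraries and was lowest in WT library 4. Tnni3, the cardiac troponin I, stayed at 2307 to 2954 CPM in all 8. The part of atrial tissue in the Ryr3 difference was not tested.

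**Figure D4:**
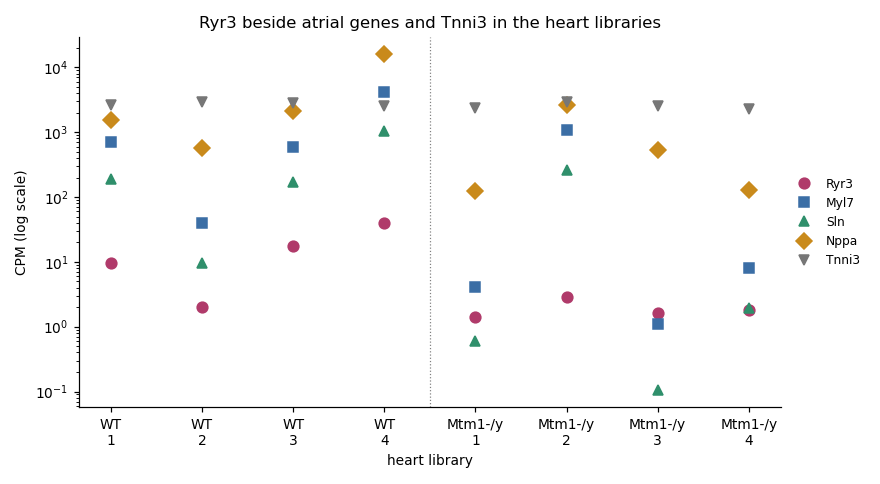
Level (CPM, log axis) of Ryr3, the atrial genes Myl7, Sln and Nppa, and Tnni3 in each of the 8 heart libraries. The atrial genes span the axis from 0.104 to 16044 CPM across libraries while Tnni3 stays at 2307 to 2954 CPM, and Ryr3 is at 9.68 to 39.7 CPM in 3 WT libraries and at 1.40 to 2.85 CPM in the other 5.

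The share of each receptor among the 3 ryanodine receptors was computed per kb of exon. Ryr1 held 99.9 to 100% in the gastrocnemius libraries and 98.6 to 99.4% in the diaphragm, and Ryr2 held 95.7 to 99.8% in the heart. In the diaphragm the share of Ryr3 was 0.574 to 0.752% in WT and 0.864 to 1.44% in Mtm1-/y, higher in all 3 Mtm1-/y libraries than in any WT library (exact permutation test, two-sided, p = 0.0286, adjusted p = 0.0857 over 9 tests). In the gastrocnemius it was 0.0657 to 0.121% in WT and 0.0476 to 0.0678% in Mtm1-/y (p = 0.0571, adjusted p = 0.0857, same exact test), with a slight overlap. Of the 9 tests 0 passed the adjustment, and 2, the shares of Ryr1 and Ryr3 in the diaphragm, had an unadjusted p under 0.05. Those 2 shares make up nearly the whole sum, so they show the same difference from both sides (−0.414 and 0.407 percentage points). The smallest exact p that these group sizes allow is 0.0286. A single test at that p could not pass the adjustment, so the count of 0 does not decide on any share by itself.

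The difference between the genotype effects of the heart and the gastrocnemius, tested as a contrast within a fit of both muscles, was called for 5 of the 10 genes, with the effect higher in the heart for each and 0 lower. Of all genes, 9.94% were called higher and 9.89% lower. Jph2 had the smallest p (1.10, SE 0.14, edgeR adjusted p = 2.1e-04), and Trdn followed (0.60, SE 0.13, adjusted p = 0.0065). Both were called whichever library was left out. The calls of Cacna1s (1.14, SE 0.34, adjusted p = 0.029), Stac3 (0.43, SE 0.14, adjusted p = 0.045) and Jph1 (0.65, SE 0.22, adjusted p = 0.048) were lost in 5, 13 and 13 of the 16 fits that left out a library. In the heart Cacna1s was at only 2.07 to 5.2 CPM in WT and 4.12 to 8.69 CPM in Mtm1-/y. Stac3 was at 1.88 to 2.32 and 1.66 to 2.59 CPM there, with a genotype effect of −0.01 (SE 0.18). Both genes were far higher in the gastrocnemius. With sarcomere scaling, chosen after seeing the data for this contrast, Jph2 alone stayed higher (0.63, SE 0.14, adjusted p = 0.0027), against 1.47% of all genes. Ryr3 (−2.40, SE 0.82, adjusted p = 0.028) and Cacnb1 (−0.85, SE 0.21, adjusted p = 0.0052) were then lower, against 41.9% of all genes, whose median moved from −0.03 to −0.50. Under TMM with a log2 difference over 1 also required, Cacna1s and Jph2 were higher, against 1.89% of all genes.

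Between the diaphragm and the gastrocnemius 0 of the 10 effects were called different by edgeR, where 0.280% of all genes were, and 3, those of Ryr3, Jph1 and Jph2, had an unadjusted p under 0.05. The effect on Ryr3 differed most (1.97, SE 0.43, edgeR adjusted p = 0.089), and DESeq2 (2.01, SE 0.45, adjusted p = 0.0021) and limma voom (1.82, SE 0.47, adjusted p = 0.046) called it, where they called 1.18% and 2.11% of all genes higher. The edgeR test called it without WT diaphragm library 3 (2.17, adjusted p = 0.044). Between the heart and the diaphragm 0 were called by edgeR, where 0.00573% of all genes were, and 3, those of Ryr2, Ryr3 and Cacnb1, had an unadjusted p under 0.05. Of these DESeq2 called Ryr3 (−3.88, SE 0.86, adjusted p = 0.0034), against 0.944% of all genes called lower, and limma voom called 0, against 4.13% of all genes. The contrasts share the libraries of a muscle, so that they are not independent.

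**Figure D5:**
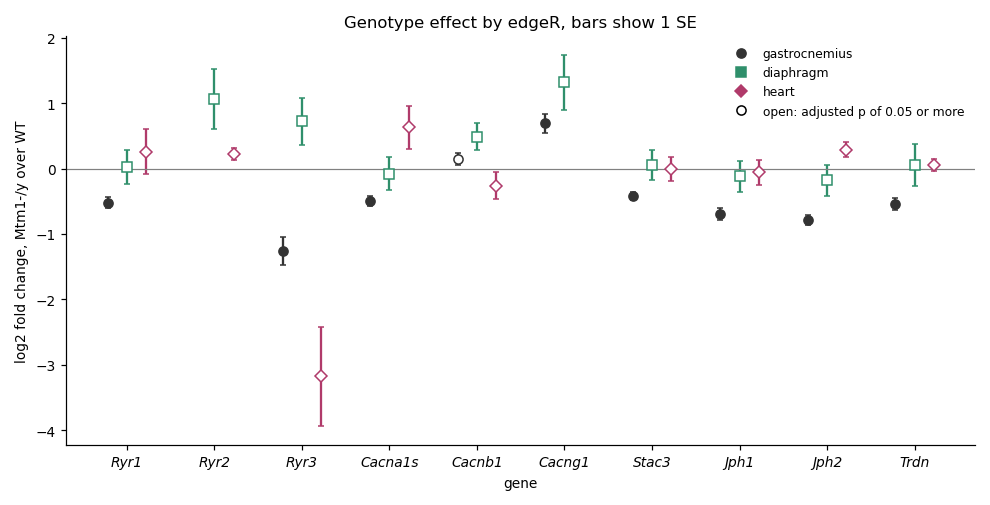
Log2 fold change (Mtm1-/y over WT, bars 1 SE) of the 10 genes in the gastrocnemius, diaphragm and heart, with filled symbols at an adjusted p under 0.05 by edgeR. Filled symbols occur in the gastrocnemius alone, with 7 below 0 and Cacng1 above, and the SE of Ryr3 in the heart (0.76) is the widest.

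Of 57 other genes of excitation-contraction coupling, 56 could be tested in the gastrocnemius, where 25 fell and 6 rose (median log2 fold change −0.25, against 0.02 for all genes), as did 14.9% and 14.1% of all genes. In the fit of all 30 libraries, where 7.57% of all genes were lower and 8.24% higher, 9 of the 56 were lower and 3 higher. The smallest p-values among them were those of Calm3, a calmodulin gene (−0.93, SE 0.07, edgeR adjusted p = 6.5e-05, from 416 ± 27.0 to 221 ± 9.64 CPM, SD over 4 libraries each), Camk2a, a calcium/calmodulin-dependent kinase (−0.84, SE 0.08), Homer1, a scaffold that binds the ryanodine receptor (−1.09, SE 0.11), Sln (4.42, SE 0.48), Calm2 (−0.66, SE 0.08) and Tmem109 (−0.56, SE 0.07). Among the others that rose were Stac2, Casq2, Ahnak and Camk2d.

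Some partners of the 10 genes are named here for their role, after their values were seen. In the gastrocnemius Cacna2d1, the remaining subunit of the dihydropyridine receptor, went from 779 ± 45.6 to 519 ± 54.2 CPM (−0.60, SE 0.09, edgeR adjusted p = 0.0013). Casq1, the calcium-binding protein held by triadin, went from 7223 ± 602 to 4128 ± 457 CPM (−0.83, SE 0.11, adjusted p = 6.1e-04), and Atp2a1, the fast fibre calcium pump, from 46242 ± 4100 to 27899 ± 3233 CPM (−0.75, SE 0.12, adjusted p = 0.0014). In the fit of all 30 libraries Cacna2d1, Casq1 and Atp2a1 were not called. Bin1, which shapes transverse tubules, was at 781 ± 55.1 and 814 ± 82.4 CPM (0.04, SE 0.09, adjusted p = 0.75, with SD over 4 libraries in each group), and it was called higher with sarcomere scaling and with library totals alone.

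With sarcomere scaling 9 of the 56 other genes were lower and 20 higher in the gastrocnemius, against 2.94% and 48.9% of all genes. In the diaphragm edgeR called 0 of 56 and DESeq2 2, both higher, and 6 had an unadjusted p under 0.05. In the heart edgeR and DESeq2 called 0, of 54 and 56 tested, where they called 0.00656% and 0.453% of all genes. By edgeR 6 had an unadjusted p under 0.05 in the heart. The most abundant there, Atp2a2, the pump of cardiac muscle, differed by 0.15 (SE 0.11, adjusted p = 0.61).

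Over the 23 muscle libraries, the genes whose log2 CPM was most like that of each receptor were sought among 10735 genes. They were Tnnc2, Tnnt3 and Tbx15 for Ryr1 (Pearson r 0.998 to 0.999), and Mybpc3, Tnni3 and Frmd5 for Ryr2 (0.998 to 0.999). Ryr3 had no gene that close, with Ccn3 at 0.842, Stk26 at 0.829 and Gpc3 at 0.821. The points share tissues and libraries, so that the coefficients describe these libraries only.

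In the liver the 10 genes were at a mean of 1.80 CPM or less in each genotype, and 5 could be tested. EdgeR called 0 of them and 0 of all genes, and 0 had an unadjusted p under 0.05. DESeq2 called 0 of 7, against 0.163% of all genes. If the counting did not use the strand, reads from exons that overlap another gene were ambiguous and were left out of the member counts. Of the exon bases of Cacna1s, 20% lie across from the antisense gene Gm37759, 4.83% of those of Ryr3 from Aven and 3.96% of those of Ryr1 from Gm26604, and whether the counting used the strand is not given in the sources used here.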

How the data were processed

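Polyadenylated RNA was sequenced in 30 libraries, made from 350 ng of total RNA with a stranded kit and read as single ends. The authors trimmed reads with cutadapt 1.10, aligned the rest to the mm10 build by STAR 2.5.3a and assigned uniquely aligned, unambiguous reads to Ensembl genes by HTSeq 0.6.1p1, and the deposited values are these raw counts for 36103 genes. Base calls came from bcl2fastq 2.17.1.14, per the submitters' processing notes. No column of other samples was found.

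The tests were run in R 4.3.3. Genes were kept by filterByExpr (count minimum 10), libraries were scaled by TMM and genotypes were compared within each tissue by edgeR 4.0.16 (glmQLFit and glmQLFTest), with p adjusted by Benjamini-Hochberg over all genes tested. The SE is the absolute log2 fold change divided by the square root of F. Effects of 2 muscles were compared by a contrast in a fit of both, and the 3 WT muscles in a fit of their 12 libraries. Ratios used a pseudocount of 1. Shares used union exon lengths of GENCODE M21, to which all 36103 genes matched. DESeq2 1.42.0 and limma 3.58.1 (voom with sample weights) were alternatives, beside other scalings, no filter, a fit of all 30 libraries, the replicate number as a block and each library left out (88 fits).

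The 10 genes and the lists were chosen with earlier results of these data known. All 10 are named. Of the other genes of excitation-contraction coupling, up to 6 with the smallest p among those called in a tissue are named, or the 2 most abundant where none is called, and genes named outside this rule are marked. Like genes had a mean of at least 5 CPM. Counts at an unadjusted p under 0.05 are given without the share of all genes, so nothing is concluded from them. Intervals were not drawn for single libraries, and p-values weigh a difference between groups against the spread between the mice of a group.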

Additional observations from a re-analysis of the deposited data

Results flagged for a closer look

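The genotype effect differed between the heart and the gastrocnemius for 5 of the 10 genes by a contrast tested in a fit of both muscles (edgeR quasi-likelihood test). The difference, heart minus gastrocnemius on the log2 scale, was 1.14 for Cacna1s, 0.43 for Stac3, 0.65 for Jph1, 1.10 for Jph2 and 0.60 for Trdn. Adjusted p ran from 2.1e-04 for Jph2 to 0.048 for Jph1. Of all genes, 9.94% were called higher and 9.89% lower. The calls of Cacna1s, Stac3 and Jph1 were lost in 5, 13 and 13 of the 16 fits that left out a library, and those of Jph2 and Trdn in 0. Cacna1s and Stac3 were low in the heart, at most at 8.69 and 2.59 CPM, and far higher in the gastrocnemius. With sarcomere scaling Jph2 kept its call, and the other 4 did not.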

How the results depend on the processing

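In the gastrocnemius 7 genes fell and 1 rose under DESeq2, limma voom, DESeq2 size factors, no filter, the replicate block and without liver-enriched genes, and in each of the 8 fits that left out a library. A fit of all 30 libraries called 0 lower and 0 higher, sarcomere scaling 3 and 2, library totals alone 4 and 2, and a log2 fold change over 1 called 1 and 0. That last threshold left 1 lower and 3 higher among the other genes of excitation-contraction coupling in the gastrocnemius, and DESeq2 called 2 of them higher in the diaphragm. DESeq2 called 1 member lower in the heart, 1 lower for heart minus diaphragm and 1 higher for diaphragm minus gastrocnemius, as voom did for the last. For heart minus gastrocnemius 3 were higher with no filter, 1 higher and 2 lower with sarcomere scaling, and 2 higher with the threshold of 1. For WT heart against WT gastrocnemius voom and the replicate block each called 1 higher, and for WT heart against WT diaphragm the threshold of 1 left 1 higher. With sarcomere scaling the sign turned for Stac3 in heart minus gastrocnemius (−0.04) and for Cacna1s (−0.12), Cacnb1 (−0.21), Stac3 (−0.05) and Trdn (−0.00) in diaphragm minus gastrocnemius, none of them called. Leaving out 1 library gave 2 to 5 higher and 0 to 1 lower for heart minus gastrocnemius, 0 to 1 higher for diaphragm minus gastrocnemius, 1 to 2 higher for WT heart against either WT muscle, and 0 to 1 higher for WT diaphragm against WT gastrocnemius. Without WT heart library 2 the effect on Ryr3 was called lower in heart minus gastrocnemius (−2.27). That library had Ryr3 at 2.01 CPM, inside the range of the Mtm1-/y hearts (1.40 to 2.85 CPM). Why it differed from the other WT hearts was not tested. Samples with the same number did not deviate together in every pair of genotypes (r of −0.68 to 0.49 over 14 pairs), so that the numbers are not taken as pairs there. Between WT muscles r was mostly positive but low. It was 0.03 to 0.18 for gastrocnemius and heart, 0.06 to 0.21 for diaphragm and heart, and −0.07 to 0.28 for gastrocnemius and diaphragm (4 pairs each). These values do not settle whether the muscles are paired, and the main tests between muscles took them as unpaired. The labels do not say whether equal numbers in different tissues mean the same mouse, which bears on the comparisons between muscles. Beside Ryr3 above, the replicate block ended the call of Stac3 in heart minus gastrocnemius, where 4 genes were then higher. Library totals alone, sarcomere scaling of the contrasts between muscles and the principal transcript length were chosen after seeing the data. With 3 or 4 libraries a group, and a coefficient of variation of 0.394 in the diaphragm, small differences were not detectable there.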
